A study of Homo sapiens with 6 samples.

Results

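The step from 2 h to 6 h of SpiD7 was described as the difference between the first of the 2 libraries taken at 2 h and the single library taken at 6 h, which are 2 of the 6 libraries of the series. RNA was taken from OVCAR5, an established ovarian cancer cell line, after vehicle (DMSO, 2 libraries, with no duration given in the sample labels) or after 10 μM SpiD7 for 2 h (2 libraries), 6 h (1 library) or 12 h (1 library). SpiD7 is a dimer of a spirocyclic compound joined by a carbon linker, and it carries groups that bind covalently to cysteines. All libraries came from this 1 line and 1 dose, and the labels do not say that they came from separate cultures. Expression was given as FPKM, the reads assigned to a gene relative to its length and to the depth of its library. The first libraries of DMSO and of 2 h, and the 6 h and 12 h libraries, were read directly from the deposited table. The second libraries of DMSO and of 2 h were recovered from columns that held means, and they served here to show how far libraries of the same treatment lay apart. No gene's DMSO value enters its step. DMSO values served to bring the 6 h library to the scale of the first 2 h library, by 1 factor for all genes, to sort genes by what they had done before 2 h, and, in an alternative, to adjust the second 2 h library for the difference between the DMSO libraries.

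When proteins misfold in the endoplasmic reticulum (ER), the sensors ATF6, IRE1 and PERK start the unfolded protein response (UPR). ATF6 and spliced XBP1 switch on ER chaperones and the machinery that clears proteins from the ER, and PERK acts through ATF4 and CHOP (the product of DDIT3) on amino acid supply, redox balance and cell death. Misfolded proteins in the cytosol are met by HSF1, which switches on heat shock proteins through heat shock elements. Immediate-early genes such as FOS and EGR1 are transcribed within minutes of a stimulus and usually fall back within hours.

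Of the 13031 genes with a mean of at least 1 FPKM over both libraries, 373 (2.86%) had more than 2-fold higher FPKM at 6 h than in the first 2 h library, and 89 (0.683%) had more than 2-fold lower FPKM. The step is the difference of log2(FPKM + 0.1) throughout. Its median was -0.025, its 5th and 95th percentiles were -0.49 and 0.69, and it was above 0 in 45.7% of genes and below 0 in 54.3%. With 1 library at each time there is no test, and no count below separates SpiD7 from the spread between libraries. In bulk RNA, fewer cells of a kind and less RNA per cell cannot be told apart. Among genes that reached 5 FPKM in either library, small-RNA and LOC symbols left out, the values nearest the 2-fold limit on its inner side belonged to CDK5R1 (1.002), CSRNP1 (1.004) and CHAC1 (1.01), and RC3H1 (0.99), SRXN1 (0.99) and ZNF430 (0.99) lay just outside it. On the lower side EGR1 (-1.03), CTGF (-1.05) and PIF1 (-1.09) were just inside, and SPC24 (-0.98), C1orf74 (-0.95) and HYLS1 (-0.94) just outside. Of the genes past the limit, 56 of those higher were listed at 0 FPKM at 2 h and 39 of those lower were listed at 0 at 6 h, where a 0 can be a failed estimate. Symbols of small RNAs and LOC symbols made up 99 of the genes higher and 61 of the genes lower. This leaves 274 and 28 among 12276 other genes. Small-RNA symbols were those that begin with MIR, SNOR, SCARNA, RNU, RNY, RN7 or VTRNA. RNAs with other prefixes, such as RMRP, RPPH1, SNAR-G1, TRNS1, TRNA and RNVU1-14, stayed among the other genes.

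The second libraries stood apart from the first. The 2 libraries at 2 h differed from each other by more than 2-fold in 1301 of the genes (9.98%), and the 2 DMSO libraries in 1610. Of these genes, 510 were higher in the second library of both pairs and 373 were lower in both. Against the second 2 h library, 772 genes had more than 2-fold higher FPKM at 6 h and 667 more than 2-fold lower, and the median difference was 0.083. The 6 h library was more than 2-fold above both 2 h libraries in 207 genes (1.59%) and more than 2-fold below both in 27 (0.207%). At any size of difference it was above both in 30.7% of genes, below both in 28.3%, and between them or equal to one in 41.05%. Values for both 2 h libraries are therefore given below, first library first.

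Markers of the labelled line were present at both times. The summed FPKM of 14 epithelial and ovarian carcinoma markers was 4157 and 3477 at 2 h and 4449 at 6 h, and MUC16 was the 1 marker below the filter. Of 12 markers of blood, vessel, connective tissue, liver, muscle and glial cells, CD68 and CD14 passed the filter. The summed FPKM of all 12 was 29.7 and 44.9 at 2 h and 32.3 at 6 h, and CD3E and MYOD1 were among those at 0 in both libraries of the step. Signs that can follow library preparation differed between the times. Of 8 RNAs without a long poly(A) tail, looked at after values were seen, 7 were more than 2-fold higher at 6 h than in the first 2 h library and 6 than in both. RPPH1 was low among them, at 6.31 and 3.46 FPKM at 2 h. RN7SK, the RNA that holds back elongation of transcription, was at 55.9 and 60.4 FPKM at 2 h and 165 at 6 h, and the mitochondrial ribosomal RNA RNR1 was at 1097 and 1596 at 2 h and 3261 at 6 h. Their part in the counts of genes past 2-fold was not tested.

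Genes were sorted by their place at 2 h relative to the first DMSO library. A gene is said to start where it was within 2-fold of DMSO at 2 h and more than 2-fold higher at 6 h than at 2 h, to continue where it was already more than 2-fold above DMSO at 2 h, and to decay where it was more than 2-fold above DMSO at 2 h and more than 2-fold lower at 6 h. The first 2 h library enters both differences, so a high or low value in it alone moves a gene between these courses. By this sorting 247 genes started, 100 continued, 26 returned upward after a level at 2 h that was more than 2-fold below DMSO, 60 decayed, 29 were lower for the first time, and 0 were lower at both steps. Without small-RNA and LOC symbols, by the prefixes given above, the counts were 184 starting, 84 continuing and 12 decaying genes. Of these, the 6 h library was also more than 2-fold beyond the second 2 h library, in the same direction, in 93, 45 and 4. From 6 h to 12 h, most kept within 2-fold of their level at 6 h. Among starting genes 10 were more than 2-fold higher again at 12 h and 8 more than 2-fold lower, with a median 12 h minus 6 h difference of 0.039. Among continuing genes the numbers were 5 and 3 (-0.11).

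**Figure D1:**
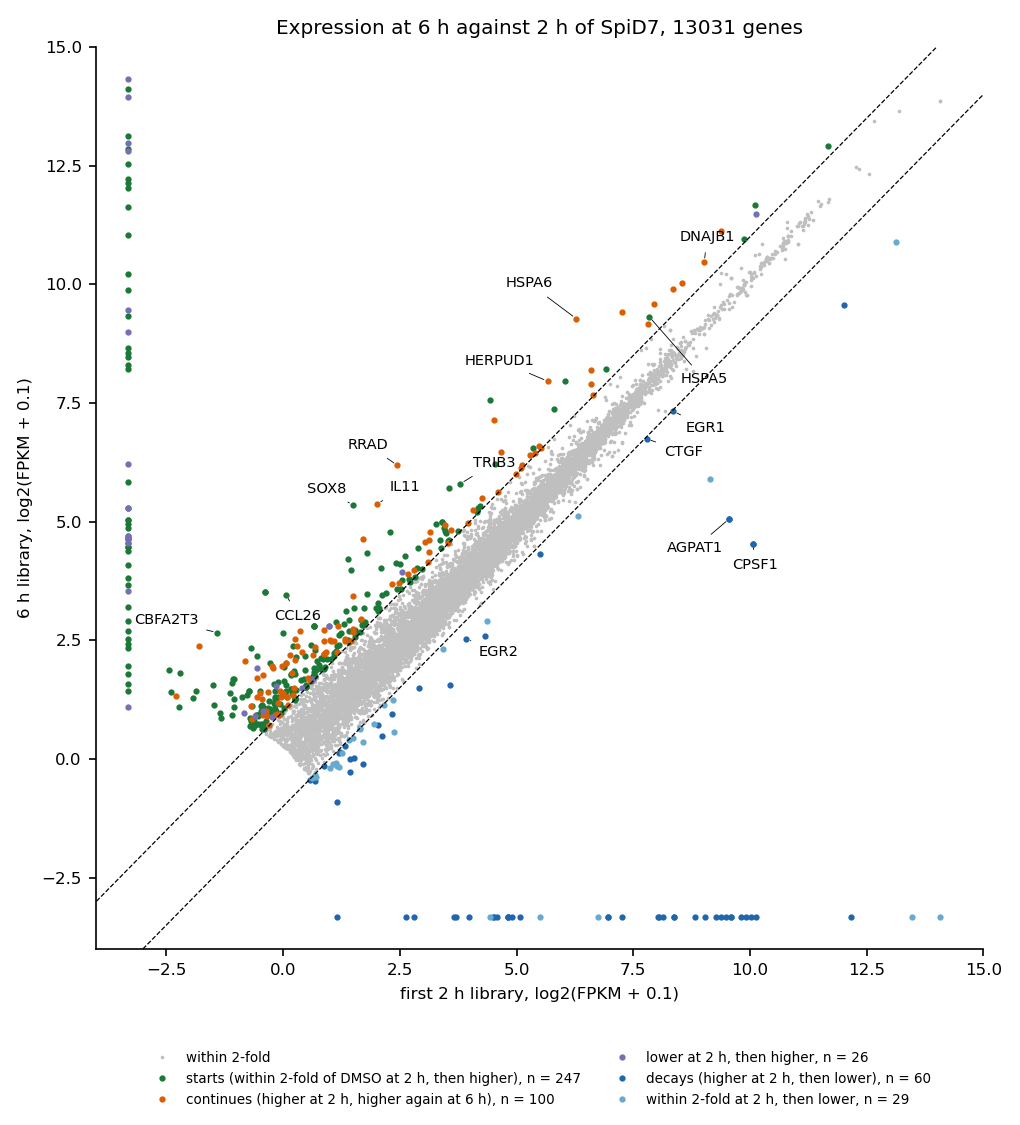
Each point is 1 of 13031 genes, with log2(FPKM + 0.1) in the first 2 h library on the x axis and in the 6 h library on the y axis, coloured by course, and dashed lines mark a 2-fold difference. The 373 genes above the upper line outnumber the 89 below the lower line, and genes listed at 0 in one library lie along the left and bottom edges.

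The promoters of genes past 2-fold in 3 stress programs are shown where a search found the element through which the program is known to act. HSPA6 stands for the heat shock response, HSPA5 and XBP1 for the ER stress element, and HERPUD1 and CHAC1 for the element shared by CHOP and ATF4. The 250 bases before the start of each gene are given as read on its own strand, from RefSeq, build GRCh38.p14, with the matched letters in capitals: HSPA6 at chr1:161524290-161524539 (plus strand), HSPA5 at chr9:125241344-125241593 (minus strand), XBP1 at chr22:28800570-28800819 (minus strand, the first of 2 starts), HERPUD1 at chr16:56931892-56932141 (plus strand) and CHAC1 at chr15:40953221-40953470 (plus strand).
HSPA6: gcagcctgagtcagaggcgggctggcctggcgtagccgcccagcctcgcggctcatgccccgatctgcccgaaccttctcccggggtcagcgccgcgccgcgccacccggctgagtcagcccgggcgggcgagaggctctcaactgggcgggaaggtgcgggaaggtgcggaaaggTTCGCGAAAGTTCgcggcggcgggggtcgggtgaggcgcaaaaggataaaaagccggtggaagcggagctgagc
HSPA5: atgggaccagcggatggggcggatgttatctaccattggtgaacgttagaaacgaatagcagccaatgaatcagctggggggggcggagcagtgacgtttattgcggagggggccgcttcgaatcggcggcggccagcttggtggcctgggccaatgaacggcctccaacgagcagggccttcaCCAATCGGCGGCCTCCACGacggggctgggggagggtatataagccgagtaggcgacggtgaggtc
XBP1: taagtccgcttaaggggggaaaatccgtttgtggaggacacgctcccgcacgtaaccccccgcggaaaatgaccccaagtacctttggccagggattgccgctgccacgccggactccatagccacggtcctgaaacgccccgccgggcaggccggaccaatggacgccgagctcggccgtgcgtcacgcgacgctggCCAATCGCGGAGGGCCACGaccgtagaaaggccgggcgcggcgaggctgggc
HERPUD1: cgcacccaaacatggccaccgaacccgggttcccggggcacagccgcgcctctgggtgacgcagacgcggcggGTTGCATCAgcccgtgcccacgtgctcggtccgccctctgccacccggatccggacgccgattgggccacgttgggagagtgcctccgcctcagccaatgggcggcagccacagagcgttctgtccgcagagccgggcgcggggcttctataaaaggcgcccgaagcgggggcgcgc
CHAC1: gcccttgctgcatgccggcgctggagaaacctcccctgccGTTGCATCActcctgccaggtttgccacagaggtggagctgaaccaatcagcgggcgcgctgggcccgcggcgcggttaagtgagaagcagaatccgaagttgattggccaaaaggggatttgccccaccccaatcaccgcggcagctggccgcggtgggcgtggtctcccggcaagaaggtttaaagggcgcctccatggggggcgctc
The heat shock element was searched as 3 units alternating between GAA and TTC, with any 2 bases between them, and in HSPA6 it lay 74 to 62 bases before the start. The ER stress element was searched as CCAAT, any 9 bases and CCACG, and lay 66 to 48 bases before the start of HSPA5 and 52 to 34 before that of XBP1. The CHOP and ATF4 element, TGATG followed by any base and AA, lay 177 to 169 bases before the start of HERPUD1 and 210 to 202 before that of CHAC1, counted with 1 free base at its end. On both strands of all 35116 promoters in the table (each 300 bases), the heat shock element was present in 0.490%, the ER stress element in 0.0769% and the CHOP and ATF4 element in 3.61%. The deposited loci, in hg38, place HSPA6 at chr1:161524245-161526897, HERPUD1 at chr16:56932061-56943881, TRIB3 at chr20:380663-397559, EGR1 at chr5:138465491-138469315, IL11 at chr19:55364381-55370463 and SOX8 at chr16:981807-986979. A match describes letters and not a bound site, and no match says only that these letters are not in the window.

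Cytosolic heat shock proteins had the highest median step of the lists against the first 2 h library. The list also holds HSPD1 (0.58) and HSPE1 (0.53), which encode the mitochondrial chaperonin. All 26 genes of the list passed the filter, all 26 were higher at 6 h than in the first 2 h library, against 45.7% of all genes, and 10 were more than 2-fold higher, against 2.86% of all genes. Their median step was 0.71 (range 0.24 to 2.998), and 25 of 26 were above both 2 h libraries, where 30.7% of all genes were. The HSP70 family member HSPA6, which is nearly silent in unstressed cells, was at 0.317 and 0.0965 FPKM with DMSO, 77.5 and 93.6 after 2 h, 620.0 after 6 h, and 1030.1 after 12 h, and its step of 2.998 was the highest of the list. It was more than 2-fold above both 2 h libraries, which lay close together. HSPA7, its neighbour and near copy, was at 0 and 0 FPKM with DMSO, 3.16 and 3.16 after 2 h, 24.7 after 6 h, and 51.5 after 12 h, and reads shared between these 2 genes make the split uncertain. ZFAND2A, a zinc-finger protein induced by arsenite that acts at the proteasome, was at 36.9 and 23.1 FPKM with DMSO, 152 and 192 after 2 h, 683 after 6 h, and 771 after 12 h. Its step was 2.16 against the first and 1.83 against the second 2 h library. BAG3, the co-chaperone that steers HSP70 clients to autophagy, was at 40.5 and 28.05 FPKM with DMSO, 97.2 and 107 after 2 h, 292 after 6 h, and 438 after 12 h. DNAJB1, the HSP40 partner that also feeds back on HSF1, was at 106 and 127 FPKM with DMSO, 519.6 and 621 after 2 h, 1414 after 6 h, and 1513 after 12 h, and its step was 1.44 and 1.19.

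The remaining heat shock genes past 2-fold were HSPA1A (1.55), HSPA1B (1.49), HSPB8 (1.47), HSPA4L (1.34), HSPH1 (1.33) and HSPA1L (1.21). HSPA1A and HSPA1B are near copies, and the row of HSPA1A overlaps that of HSPA1L, so their separate levels are uncertain. HSPH1, the nucleotide exchange factor of HSP70, was at 104 and 50.6 FPKM with DMSO, 226 and 229 after 2 h, 569.5 after 6 h, and 687 after 12 h. HSPA4L, of the same family, was the single starting gene of the list. It was at 9.20 and 3.64 FPKM with DMSO, 10.9 and 7.65 after 2 h, 27.8 after 6 h, and 33.8 after 12 h, so that the first 2 h library was within 2-fold of the first DMSO library, while the second was more than 2-fold above the second DMSO library. For HSPA1L and HSPB8 the difference from the second 2 h library fell short of 2-fold (0.44 and 0.60), and the other 8 were past it against both. The 2 most abundant members at 6 h had small steps. HSPA8, the constitutive HSP70, was at 1773 and 1442 FPKM at 2 h and 2545 at 6 h (0.52), and HSP90AA1 was at 1786 and 1211 at 2 h and 2330.4 at 6 h (0.38). DNAJB4 (0.24) was the lowest of the list and the 1 gene between the 2 h libraries. The small heat shock protein CRYAB was at 1.24, 1.82, 2.28 and 9.03 FPKM in the 2 h, 6 h and 12 h libraries, and HSPB1 was at 217, 266, 406 and 1039.6. These were the 2 members more than 2-fold higher at 12 h than at 6 h, and no member was more than 2-fold lower. The second DMSO library was below the first in most of this list (median difference -0.55). With that difference taken off the second pair the median step was 0.29, with 4 genes past 2-fold, against 627 of all 13031 genes. By this measure other lists had higher medians, among them immediate-early genes (2.20), NF-kB targets (2.00) and targets of ATF4 and CHOP (0.46). Of the 10 genes past 2-fold, each with a promoter in the table, HSPA6 held the heat shock element as searched, and among the 16 others 7 of the 14 with a promoter did.

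The 8 subunits of TRiC, the ring-shaped chaperonin that folds actin and tubulin, had no member past 2-fold. Their median step was 0.10, between -0.0022 for CCT3 and 0.46 for TCP1. Of all genes, 3.5% were past 2-fold in either direction. The 31 proteasome subunits likewise had no member past 2-fold, with a median of 0.11 and a range from -0.11 (PSMB2) to 0.26 (PSMB1), although 27 of 31 were above both 2 h libraries, where 30.7% of all genes were. Among 17 measured ubiquitin and autophagy stress genes (median 0.26), MAP1LC3B, the autophagosome coat protein LC3B, was the highest at 50.8 and 81.2 FPKM at 2 h and 95.4 at 6 h (0.91), and NBR1 was the lowest (-0.31).

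**Figure D2:**
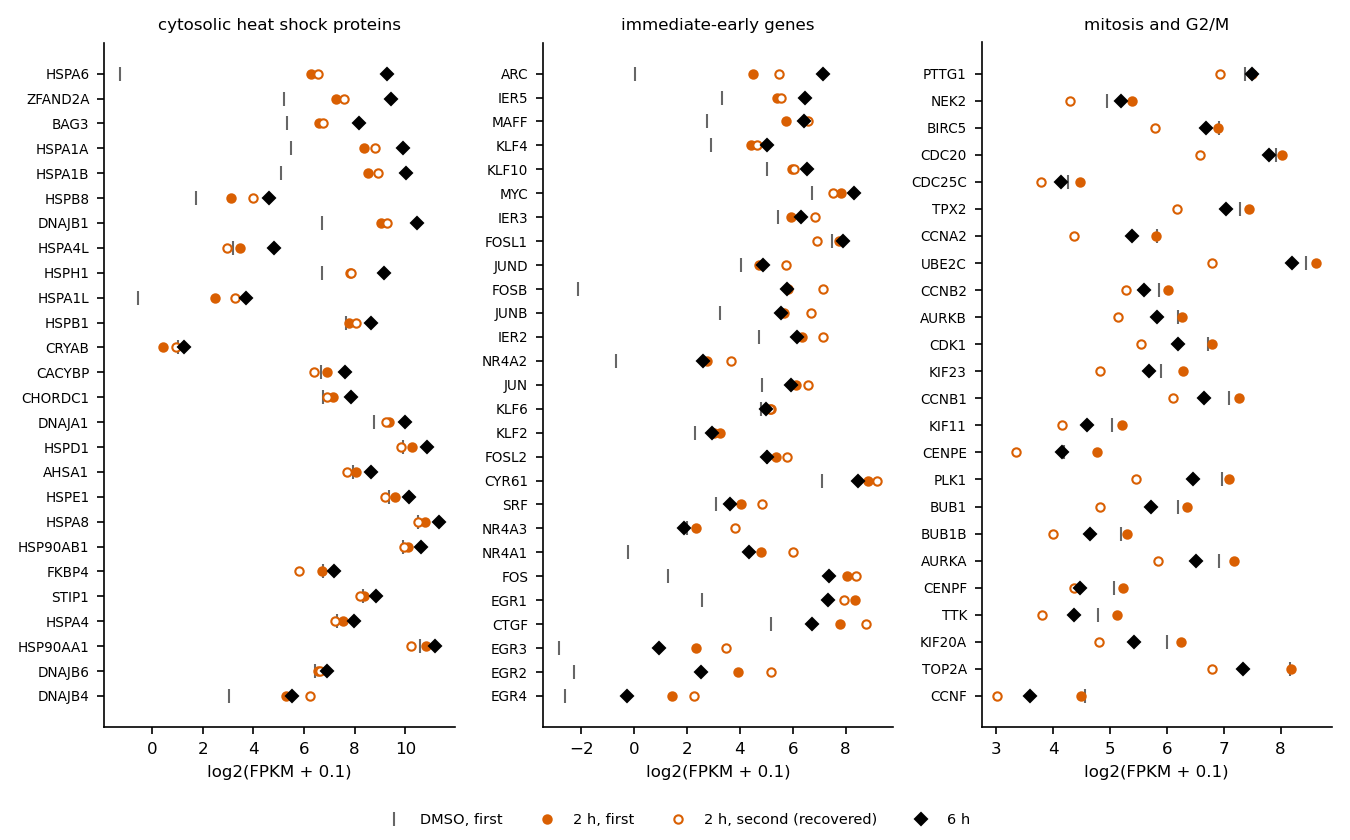
Log2(FPKM + 0.1) of every measured member of 3 lists in the first DMSO library (bars), the first and the second, recovered 2 h library (filled and open circles) and the 6 h library (diamonds), ordered by step. The diamonds lie right of both circles in 25 of 26 heat shock genes, left of both in 18 of 27 immediate-early genes, and between them in 23 of 24 mitosis genes.

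The ER arm of the response was split by gene. Of 20 ER chaperones and foldases, 19 were higher at 6 h than in the first 2 h library (median step 0.33), against 45.7% of all genes. The 3 genes HSPA5, DNAJB9 and SDF2L1 were more than 2-fold higher, as were 2.86% of all genes. HSPA5, the master ER chaperone BiP, was at 197 and 337 FPKM with DMSO, 229 and 354 after 2 h, 638 after 6 h, and 1378 after 12 h. It started in this step, was above both 2 h libraries by 1.48 and 0.85, and was more than 2-fold higher again at 12 h (1.11). DNAJB9, a BiP co-chaperone that restrains IRE1, was at 3.17 and 8.66 FPKM with DMSO, 11.99 and 21.1 after 2 h, 28.04 after 6 h, and 28.7 after 12 h and was already above DMSO at 2 h. SDF2L1, a partner of BiP, was at 27.9 and 31.4 FPKM with DMSO, 17.9 and 24.7 after 2 h, 38.7 after 6 h, and 63.5 after 12 h, with its lowest level in the first 2 h library. HSP90B1, the ER form of HSP90, fell short of 2-fold, at 313 and 502 FPKM at 2 h, 527 after 6 h and 969.8 after 12 h. The foldase ERO1L was the single member lower at 6 h (-0.047). No ER chaperone was more than 2-fold above both 2 h libraries, and 11 of 20 were above both at any size, against 30.7% of all genes. Against the second 2 h library the median was 0.013.

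In the machinery of ER-associated degradation, HERPUD1 was the 1 of 17 measured members past 2-fold, where 2.86% of all genes were more than 2-fold higher. HERPUD1, which recruits the ubiquitin ligase HRD1 to its clients, was at 14.3 and 33.2 FPKM with DMSO, 50.7 and 79.7 after 2 h, 248 after 6 h, and 350.0 after 12 h, so that its step was 2.29 against the first and 1.64 against the second 2 h library. It was above both DMSO libraries at each time. The other 16 measured members had steps between -0.34 (HERPUD2) and 0.45 (SEL1L), and the list median was 0.13, while DERL3 was below the filter. Among 10 UPR sensors and transducers (median 0.079), XBP1 and EIF2AK3 were more than 2-fold higher, as were 2.86% of all genes. XBP1, the transcription factor spliced by IRE1, was at 20.3 and 49.8 FPKM with DMSO, 40.7 and 63.98 after 2 h, 93.8 after 6 h, and 82.8 after 12 h. EIF2AK3, which encodes PERK, was at 8.17 and 12.7 FPKM with DMSO, 13.3 and 19.1 after 2 h, 27.8 after 6 h, and 18.9 after 12 h. Both were above each 2 h library, the second by less than 2-fold (0.55 and 0.54), and both were lower at 12 h than at 6 h. ATF6 was at 8.28 and 7.80 FPKM at 2 h and 7.05 at 6 h, and ATF4 at 269.5 and 274 at 2 h and 343 at 6 h. MBTPS2, the protease that completes the cleavage of ATF6, had the lowest step (-0.30). FPKM per gene does not show XBP1 splicing. Over these 3 ER lists, 2 of the 6 genes past 2-fold (HSPA5 and XBP1) held the ER stress element printed above, and 6 of the 37 others with a promoter did.

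Of 29 measured targets of ATF4 and CHOP, 6 were more than 2-fold higher at 6 h than in the first 2 h library, against 2.86% of all genes, and 3 of them against both 2 h libraries. The step was above 0 in 28 of 29, against 45.7% of all genes, with a median of 0.43, and 24 were above both 2 h libraries, where 30.7% of all genes were. The genes past 2-fold were TRIB3, SESN2, VEGFA, VLDLR, DDIT3 and CHAC1. TRIB3, the pseudokinase that restrains AKT and ATF4, was at 12.9 and 11.1 FPKM with DMSO, 13.8 and 13.5 after 2 h, 55.5 after 6 h, and 82.4 after 12 h. It did not differ by 2-fold among any of the DMSO and 2 h libraries, and its step was 2.002 and 2.04. SESN2, an inhibitor of mTORC1 under amino acid shortage, was at 1.89 and 2.94 FPKM with DMSO, 8.77 and 9.40 after 2 h, 27.3 after 6 h, and 38.6 after 12 h, with a step of 1.63 and 1.53. DDIT3 was at 13.9 and 46.3 FPKM with DMSO, 99.1 and 188 after 2 h, 203 after 6 h, and 124 after 12 h, and its 6 h level was close to that of the second 2 h library (0.11). CHAC1, which degrades glutathione, was at 0.738 and 2.08 FPKM with DMSO, 15.5 and 14.2 after 2 h, 31.2 after 6 h, and 12.4 after 12 h, highest at 6 h in this series. VEGFA, the angiogenic factor, was at 5.01 and 18.1 FPKM with DMSO, 10.9 and 19.2 after 2 h, 30.4 after 6 h, and 21.98 after 12 h. VLDLR, a lipoprotein receptor, was at 1.60 and 2.86 FPKM with DMSO, 1.47 and 3.12 after 2 h, 3.47 after 6 h, and 4.75 after 12 h. For VEGFA and VLDLR the second DMSO library was above the first 2 h library as well.

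TRIB3, SESN2 and CHAC1 were the members more than 2-fold above both 2 h libraries. PPP1R15A (GADD34, which lets translation resume) was at 35.7 and 139 FPKM with DMSO, 236 and 319.9 after 2 h, 458 after 6 h, and 471 after 12 h. The amino acid transporter subunit SLC3A2 was at 205 and 112 FPKM with DMSO, 287 and 222 after 2 h, 557 after 6 h, and 672 after 12 h. Both fell just short of 2-fold in their step (0.96 and 0.95). ATF3 had nearly all of its difference from the first DMSO library at 2 h, with 1.06 and 99.4 FPKM with DMSO, 46.01 and 80.2 after 2 h, 57.05 after 6 h, and 31.9 after 12 h, and a step of 0.31. The serine synthesis enzyme PSAT1 (0.68) and asparagine synthetase ASNS (0.54) were intermediate. ATF5 was the 1 measured member with a step below 0 (-0.13), and NUPR1 was below the filter. CHAC1 was the 1 of 5 members past 2-fold with a promoter in the table that held the CHOP and ATF4 element, and 8 of the 20 others with a promoter did.

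**Figure D3:**
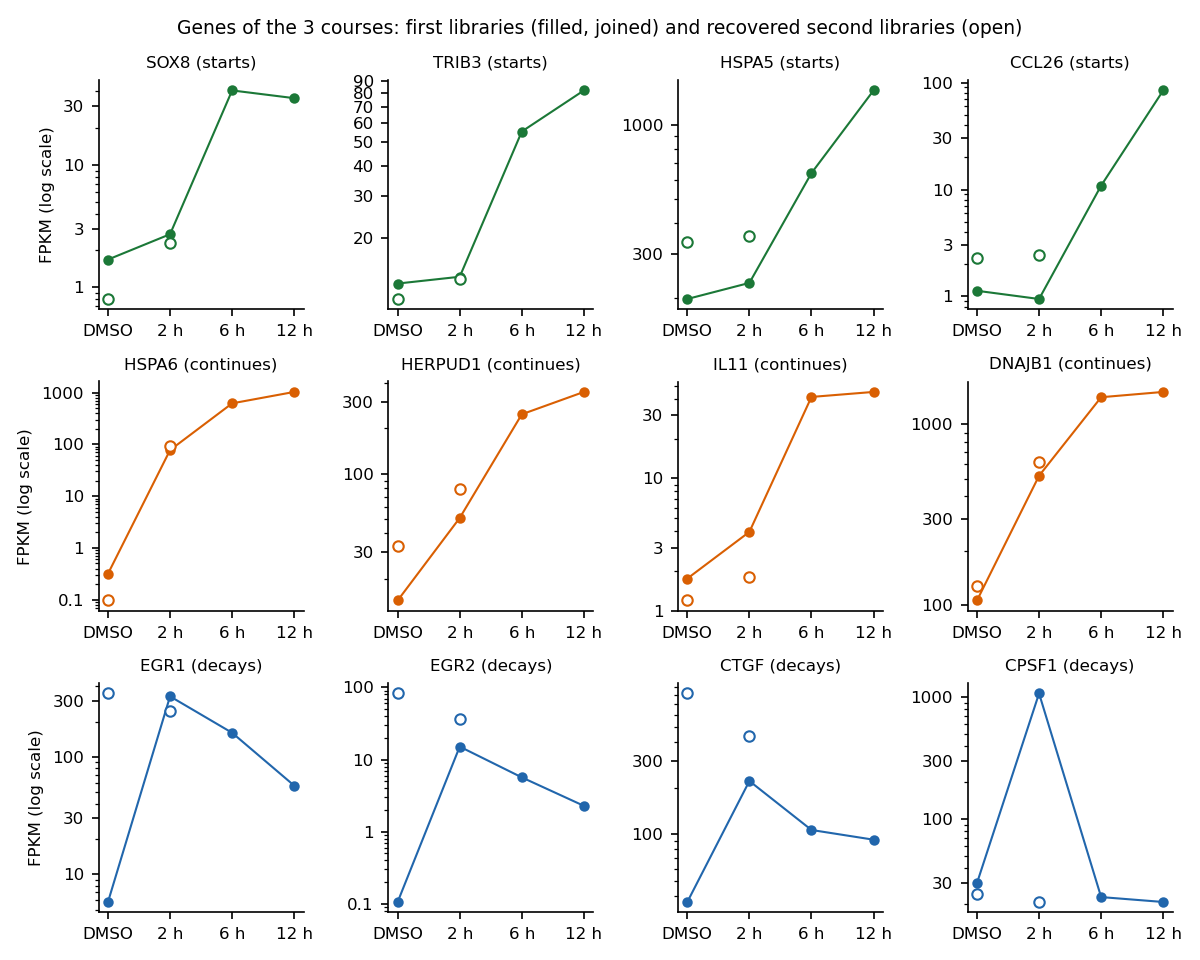
FPKM on a log scale in the DMSO, 2 h, 6 h and 12 h libraries for 4 genes each that start, continue or decay, with the first libraries filled and joined and the recovered second libraries open. TRIB3 has both 2 h libraries close to DMSO, and HSPA6 and DNAJB1 have both far above it. For SOX8 the second 2 h library is above the second DMSO library by 1.40 on the log2 scale. The second DMSO library of EGR1, EGR2 and CTGF lies as high as or higher than the 2 h libraries, and the 2 h libraries of CPSF1 disagree.

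Immediate-early genes made up 5 of the 12 decaying genes outside the small-RNA prefixes and LOC symbols. The spliceosomal variant RNVU1-14, a short RNA not covered by these prefixes, was also among the 12. Of the 27 genes of this list, 18 had been more than 2-fold above the first DMSO library at 2 h, as had 461 of all 13031 genes. In the second pair the median 2 h minus DMSO difference of the list was -0.50. At 6 h 18 of the 27 genes were below both 2 h libraries, where 28.3% of all genes were. EGR1, EGR2, EGR3, EGR4 and CTGF were more than 2-fold lower than in the first 2 h library, against 0.683% of all genes, and the list median was -0.18. EGR1, a zinc-finger factor induced by growth and stress signals, was at 5.80 and 348 FPKM with DMSO, 328 and 247 after 2 h, 161 after 6 h, and 56.9 after 12 h. EGR2, of the same family, was at 0.105 and 82.7 FPKM with DMSO, 15.1 and 36.2 after 2 h, 5.65 after 6 h, and 2.28 after 12 h. EGR3 was at 0.0381 and 37.4 FPKM with DMSO, 4.94 and 10.9 after 2 h, 1.82 after 6 h, and 1.71 after 12 h. EGR4 was at 0.0649 and 13.3 FPKM with DMSO, 2.60 and 4.69 after 2 h, 0.728 after 6 h, and 0.443 after 12 h. CTGF, a secreted target of YAP and SRF, was at 36.5 and 822 FPKM with DMSO, 222 and 438 after 2 h, 107 after 6 h, and 92.4 after 12 h. All 5 were below both 2 h libraries at 6 h, and none was back at the level of the first DMSO library. Their second DMSO library was above the 6 h library in each case, and with the difference between the DMSO libraries taken off the second pair the steps of these 5 genes reversed. The part of the second pair in this decay was not tested.

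Other immediate-early genes were lower by less. FOS was at 2.34 and 373 FPKM with DMSO, 263 and 338 after 2 h, 164 after 6 h, and 98.7 after 12 h (-0.68). NR4A1, an orphan nuclear receptor, was at 0.758 and 232 FPKM with DMSO, 27.9 and 64.6 after 2 h, 20.00 after 6 h, and 20.1 after 12 h (-0.48). The SRF target CYR61 was at 137 and 568 FPKM with DMSO, 458 and 587 after 2 h, 357 after 6 h, and 299 after 12 h (-0.36). All 3 were below both 2 h libraries at 6 h. FOSB was at 55.7 FPKM in the first 2 h library, 142 in the second and 55.5 at 6 h. A few members went the other way. ARC, known from neurons as an activity-regulated gene, was at 0.925 and 53.2 FPKM with DMSO, 22.7 and 44.8 after 2 h, 141 after 6 h, and 94.9 after 12 h, so that its step of 2.63 was among the higher values of all continuing genes. IER5, a target of HSF1 and regulator of it, was at 9.98 and 13.2 FPKM with DMSO, 42.1 and 46.7 after 2 h, 87.1 after 6 h, and 94.2 after 12 h (1.05). MAFF (0.71), KLF4 (0.60) and MYC (0.50) also had steps above 0, short of 2-fold. Against the second 2 h library KLF4 (0.36) and MYC (0.79) were higher at 6 h, and MAFF was lower (-0.13). Of 14 dual-specificity phosphatases and related brakes of MAP kinase signalling (median 0.18), DUSP2 was at 0 and 7.40 FPKM with DMSO, 0.463 and 2.58 after 2 h, 4.08 after 6 h, and 3.38 after 12 h. DUSP8 was at 0.215 and 3.44 FPKM with DMSO, 0.939 and 1.97 after 2 h, 3.94 after 6 h, and 2.88 after 12 h. For both, the 6 h level lay within 2-fold of the second DMSO library or below it, and SPRED1 had the lowest step (-0.33). Among 5 measured EGF family ligands, HBEGF, a ligand of the EGF receptor, was more than 2-fold above both 2 h libraries at 17.2 and 28.9 FPKM with DMSO, 38.8 and 35.5 after 2 h, 85.2 after 6 h, and 69.2 after 12 h, and EPGN was the lowest (-0.66).

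IL11 had the highest step among 17 measured NF-kB targets and cytokines. IL11, a cytokine of the IL-6 family, was at 1.75 and 1.19 FPKM with DMSO, 3.94 and 1.81 after 2 h, 41.4 after 6 h, and 45.1 after 12 h, with a step of 3.36 against the first and 4.44 against the second 2 h library, and it was low in both DMSO libraries. RELB, a subunit of NF-kB, was at 2.99 and 13.6 FPKM with DMSO, 4.50 and 14.04 after 2 h, 11.1 after 6 h, and 14.4 after 12 h. The chemokine CXCL2 was at 0.348 and 105 FPKM with DMSO, 0.819 and 7.05 after 2 h, 1.81 after 6 h, and 1.39 after 12 h. Both were higher at 6 h than in the first 2 h library and lower than in the second. This list separated the pairs of libraries, since its median was 2.85 higher on the log2 scale in the second than in the first DMSO library, and 12 of the 17 genes lay between the 2 h libraries at 6 h. Its median step was 0.26 against the first and -1.66 against the second. TNFAIP2 had the lowest step (-0.27).

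Many of the highest steps belonged to genes of no list. SOX8, a SOXE transcription factor, was at 1.69 and 0.803 FPKM with DMSO, 2.72 and 2.29 after 2 h, 40.6 after 6 h, and 35.1 after 12 h. Its step was 3.85 and 4.09. CBFA2T3, a transcriptional corepressor, was at 0.228 and 0.277 FPKM with DMSO, 0.275 and 0.269 after 2 h, 6.23 after 6 h, and 3.88 after 12 h. DOK7, an adaptor protein known from the neuromuscular junction, was at 0.683 and 0.571 FPKM with DMSO, 0.667 and 1.36 after 2 h, 11.3 after 6 h, and 10.3 after 12 h. All 3 genes stood below 3 FPKM in every DMSO and 2 h library. In the second pair, SOX8 and DOK7 were already more than 2-fold above DMSO at 2 h (1.40 and 1.12). CCL26, a chemokine that attracts eosinophils, was at 1.13 and 2.30 FPKM with DMSO, 0.948 and 2.43 after 2 h, 10.9 after 6 h, and 84.4 after 12 h, and it was the one of these that was higher again by more than 2-fold at 12 h (2.94). RRAD, a small GTPase of the RGK family, was sorted as continuing. It was at 0.886 and 6.79 FPKM with DMSO, 5.36 and 11.5 after 2 h, 72.6 after 6 h, and 89.3 after 12 h, with a step of 3.74 and 2.65. In the second pair its 2 h level was above DMSO by less than 2-fold (0.75). NAALAD2, a peptidase, continued at lower levels, at 0.219 and 0.147 FPKM with DMSO, 1.09 and 2.65 after 2 h, 5.68 after 6 h, and 4.48 after 12 h. All 6 were more than 2-fold above both 2 h libraries.

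Further genes beyond both 2 h libraries by more than 2-fold, named after their values were seen, included transcription factors. TP73, a relative of p53, was at 1.02 and 0.634 FPKM with DMSO, 0.892 and 0.671 after 2 h, 6.14 after 6 h, and 5.43 after 12 h. KLF11, a TGF-β inducible factor, was at 1.71 and 0.826 FPKM with DMSO, 2.63 and 1.60 after 2 h, 15.6 after 6 h, and 12.1 after 12 h. GRHL1, an epithelial factor, was at 1.29 and 1.86 FPKM with DMSO, 2.45 and 2.22 after 2 h, 8.61 after 6 h, and 4.45 after 12 h. Each of these 3 was highest at 6 h. GATA2, a zinc-finger factor, was at 18.2 and 31.5 FPKM with DMSO, 23.2 and 30.6 after 2 h, 74.1 after 6 h, and 54.1 after 12 h. GADD45A and GADD45G, growth arrest genes induced by stress, were sorted as continuing. GADD45A was at 21.1 and 41.2 FPKM with DMSO, 46.2 and 40.7 after 2 h, 93.6 after 6 h, and 182 after 12 h, so that its level at 2 h was above DMSO in the first pair and not in the second. GADD45G was at 0.161 and 0.180 FPKM with DMSO, 1.74 and 1.88 after 2 h, 5.51 after 6 h, and 6.78 after 12 h. CLU, the extracellular chaperone clusterin, was at 7.51 and 7.53 FPKM with DMSO, 19.1 and 19.4 after 2 h, 45.3 after 6 h, and 96.6 after 12 h, about as high in the first as in the second library of each pair. FLNC, a filamin that crosslinks actin and is a client of BAG3, started in this step, at 4.64 and 3.42 FPKM with DMSO, 4.76 and 5.45 after 2 h, 27.6 after 6 h, and 43.1 after 12 h. MARVELD3, a tight junction protein, was at 2.94 and 4.54 FPKM with DMSO, 3.36 and 6.54 after 2 h, 20.2 after 6 h, and 15.03 after 12 h. IGF2, INS and INS-IGF2 were each listed with the same values in all libraries because their rows share 1 locus, with 1.49 and 1.01 FPKM at 2 h and 6.88 at 6 h, so the gene behind this value is uncertain.

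HMOX1 was the 1 of 23 measured NRF2 targets past 2-fold, where 2.86% of all genes were more than 2-fold higher. HMOX1, the heme oxygenase that both NRF2 and HSF1 can switch on, was at 36.7 and 36.1 FPKM with DMSO, 245 and 354 after 2 h, 773 after 6 h, and 529 after 12 h, with a step of 1.66 and 1.13 and a lower level at 12 h. SRXN1, which restores peroxiredoxins, lay just below the limit at 75.2 and 64.3 FPKM at 2 h and 149.5 at 6 h. NQO1, another target of NRF2, was at 259.6 and 198 at 2 h and 257 at 6 h. The list median was 0.23, and PIR had the lowest step (-0.37). The 5 measured metallothionein and zinc exporter genes had a median of 0.055, between -0.061 for MT2A and 0.19 for MT1F.

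Among 18 measured apoptosis regulators (median 0.11), 3 were more than 2-fold higher, against 2.86% of all genes, and 1 of them against both 2 h libraries. BBC3, the BH3-only protein PUMA, was at 0.855 and 5.38 FPKM with DMSO, 2.16 and 5.02 after 2 h, 6.86 after 6 h, and 6.57 after 12 h. BCL2L11, the BH3-only protein BIM, was at 7.20 and 7.56 FPKM with DMSO, 11.6 and 9.68 after 2 h, 24.2 after 6 h, and 18.8 after 12 h. The death receptor FAS was at 1.42 and 3.40 FPKM with DMSO, 1.09 and 3.18 after 2 h, 2.27 after 6 h, and 2.26 after 12 h. BCL2L11 was above both 2 h libraries by more than 2-fold, BBC3 was above the second by less (0.44), and FAS was below the second. MCL1, a short-lived protein that holds BH3-only proteins in check, was the lowest of the list, at 62.2 and 173 FPKM with DMSO, 132 and 162 after 2 h, 83.4 after 6 h, and 94.9 after 12 h (-0.66). PMAIP1, the BH3-only protein NOXA, was at 17.0 and 25.1 FPKM with DMSO, 41.95 and 36.1 at 2 h and 40.7 at 6 h. Its difference between 2 h and DMSO was 1.30 in the first pair and 0.52 in the second. Of 18 measured genes of cholesterol synthesis (median 0.13), HMGCS1, which makes HMG-CoA, was at 15.1 and 27.9 FPKM with DMSO, 31.7 and 47.9 after 2 h, 64.4 after 6 h, and 116 after 12 h. INSIG1, which retains SREBP in the ER, was at 2.98 and 22.2 FPKM with DMSO, 8.52 and 19.9 after 2 h, 17.7 after 6 h, and 28.6 after 12 h, below the second 2 h library at 6 h.

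Genes of mitosis were lower at 6 h than in the first 2 h library in 23 of 24 cases, against 54.3% of all genes, and none by 2-fold. The median step was -0.61 (range -0.90 to 0.0026), the lowest of all lists. CCNF, the cyclin F subunit of a ubiquitin ligase, was at 23.6 and 9.60 FPKM with DMSO, 22.3 and 8.001 after 2 h, 11.9 after 6 h, and 6.28 after 12 h (-0.90). TOP2A, the topoisomerase that untangles chromosomes, was at 287 and 128 FPKM with DMSO, 290.0 and 110.3 after 2 h, 161 after 6 h, and 46.5 after 12 h. CDK1, the mitotic kinase, was at 105 and 48.98 FPKM with DMSO, 111 and 46.7 after 2 h, 73.04 after 6 h, and 19.6 after 12 h. PTTG1, securin, was the highest of the list, at 166 and 123 FPKM with DMSO, 181 and 122 after 2 h, 181 after 6 h, and 125 after 12 h. The second 2 h library was below the first in 24 of 24 of these genes (median -1.31), against 7341 of all 13031 genes. The second DMSO library differed from the first by a median of -1.01. At 6 h 23 of 24 lay between the 2 h libraries, where 41.05% of all genes lay between them or were equal to one. At 12 h 24 of 24 were below their 6 h level (median -1.09), against 7573 of all 13031 genes, and 13 by more than 2-fold, against 300.

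**Figure D4:**
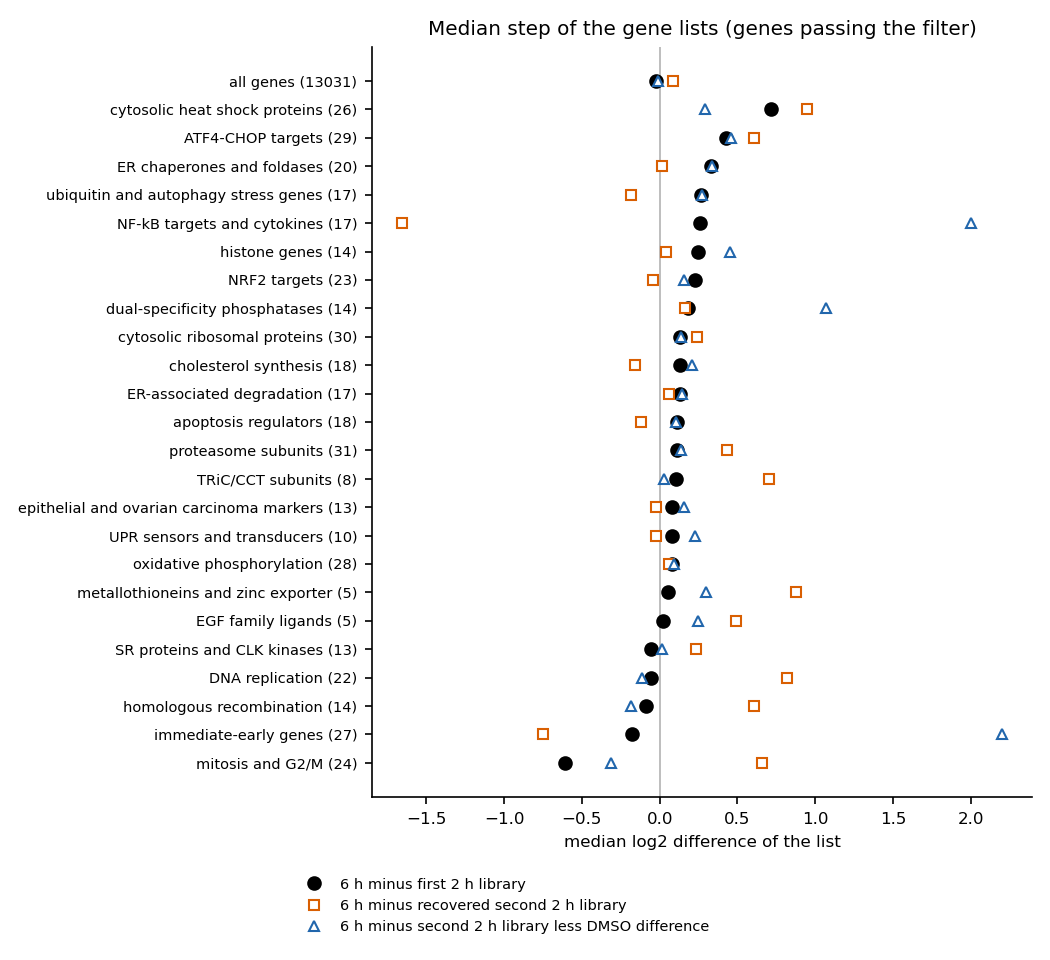
Median log2 difference of each gene list, with the number of measured genes in brackets, for 6 h minus the first 2 h library (black circles), 6 h minus the recovered second 2 h library (open squares) and the latter less the log2 difference of the DMSO libraries (open triangles). Heat shock proteins are above 0 by all 3 (0.71, 0.95 and 0.29), as are ATF4-CHOP targets (0.43, 0.60 and 0.46), proteasome subunits (0.11, 0.43 and 0.14) and other lists. NF-kB targets (0.26, -1.66 and 2.002), immediate-early genes (-0.18, -0.75 and 2.20) and mitosis genes (-0.61, 0.66 and -0.31) change sign. So do UPR sensors (0.079, -0.023 and 0.23) and apoptosis regulators (0.11, -0.12 and 0.10). Ubiquitin and autophagy genes, NRF2 targets, cholesterol synthesis and epithelial markers also change sign. The same holds for DNA replication, homologous recombination, and SR proteins and CLK kinases.

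DNA replication (22 genes, median -0.058) and homologous recombination (14 genes, median -0.09) had no member past 2-fold in this step. Of all genes, 3.5% were past it in either direction. In replication CCNE1, the cyclin of entry into S phase, was the highest at 9.31 and 7.94 FPKM with DMSO, 11.9 and 10.2 after 2 h, 22.9 after 6 h, and 22.02 after 12 h (0.94) and the chromatin assembly factor CHAF1A the lowest (-0.35). In recombination the range ran from -0.61 for BARD1, the partner of BRCA1, to 0.067 for RAD51C. Their medians from 6 h to 12 h were -0.50 and -0.69. All 30 cytosolic ribosomal proteins had a step above 0, as did 45.7% of all genes (median 0.13), between 0.032 for RPL7A and 0.27 for RPLP1. Oxidative phosphorylation (28 genes, median 0.079) ran from -0.40 for SDHA to 0.29 for NDUFA4. CLK1, a kinase of SR splicing factors, was the highest of 13 splicing genes at 71.1 and 74.5 FPKM at 2 h and 132 at 6 h (0.89), CLK2 was the lowest (-0.32), and the median was -0.053. Of 14 measured histone genes (median 0.24), HIST1H2BL was more than 2-fold higher (1.05), as were 2.86% of all genes, and H1F0 was the lowest (-0.31). Of the 13 measured epithelial markers (median 0.081), MUC1 was more than 2-fold higher, as were 2.86% of all genes. MUC1 was at 3.15 and 21.9 FPKM with DMSO, 3.21 and 17.7 after 2 h, 8.97 after 6 h, and 11.1 after 12 h. At 6 h MUC1 was below the second 2 h library, and CLDN7 had the lowest step of the list (-0.28). The 2 measured markers of other cell types had steps of 0.22 (CD14) and 0.11 (CD68).

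Several of the lowest steps outside short RNAs held against the first 2 h library only. CPSF1, a subunit of the complex that cleaves pre-mRNA, was at 29.9 and 24.3 FPKM with DMSO, 1071 and 21.1 after 2 h, 22.99 after 6 h, and 20.96 after 12 h. AGPAT1, an enzyme of phospholipid synthesis, was at 35.8 and 40.5 FPKM with DMSO, 753 and 38.1 after 2 h, 33.2 after 6 h, and 32.3 after 12 h. Only the first 2 h library was high for these 2 genes. Their loci overlap rows of microRNA and other genes (MIR939, MIR6849 and ADCK5 for CPSF1, and 5 rows that include MIR6721 for AGPAT1). The meiotic recombinase DMC1 was at 5.49 and 5.35 FPKM with DMSO, 5.09 and 1.05 after 2 h, 1.38 after 6 h, and 0.778 after 12 h. The helicase PIF1 was at 6.86 and 4.15 FPKM with DMSO, 10.6 and 3.64 after 2 h, 4.91 after 6 h, and 1.93 after 12 h. Both were higher at 6 h than in the second 2 h library (0.37 and 0.42). The kinetochore gene SPC24 (-0.98), C1orf74 (-0.95) and the centriole gene HYLS1 (-0.94) complete the lower end and were within 2-fold. Against the second 2 h library SPC24 (-0.26) and C1orf74 (-0.49) were lower at 6 h, and HYLS1 was higher (0.45).

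Very short RNAs gave the most extreme steps, on values that passed between 0 and high FPKM. The mitochondrial transfer RNA row TRNS1 was at 0 and 19092 FPKM with DMSO, 0 and 0 after 2 h, 2119 after 6 h, and 0 after 12 h. TRNA was at 16185 and 9546 FPKM with DMSO, 17236 and 10179 after 2 h, 0 after 6 h, and 35664 after 12 h. SNAR-G1 was listed at 0 in every library except 6 h (32.8 FPKM). The spliceosomal variant RNVU1-15 was at 0 and 0 FPKM with DMSO, 0 and 7.42 after 2 h, 5.68 after 6 h, and 0 after 12 h, above its 6 h level in the second 2 h library. RNVU1-19 was at 0 and 0 FPKM with DMSO, 0 and 0 after 2 h, 5.28 after 6 h, and 6.36 after 12 h, and RNVU1-14 was at 0 and 6.59 FPKM with DMSO, 19.9 and 7.70 after 2 h, 5.89 after 6 h, and 0 after 12 h. The 5 largest steps of LOC symbols belonged to LOC102724664, LOC102724953, LOC101929612 and LOC102723931, which were listed at 0 in the first 2 h library, and LOC101926970, which was listed at 0 at 6 h. A step against a listed 0 depends on the pseudocount and is no fold.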

How the data were processed

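RNA of OVCAR5 cells was read as single 50-base reads. Per the study's methods, the authors trimmed them with Trim Galore, aligned them with TopHat2 2.0.8 and estimated expression with Cufflinks and Cuffdiff 2.1.1. The notes name the builds GRCm38 and hg38, whereas the gene positions in the table are those of human genes. The authors deposited FPKM for both sides of 4 comparisons, with their own fold changes, p-values and q-values, which were not used. Cuffdiff scaled each comparison separately, so the 6 h and 12 h libraries were divided by the median ratio of the first DMSO library between comparisons (0.972 and 0.994). In the comparison named for replicate 2, no row above 0 in a first library was at 0, and its columns were read as means of a group's libraries. The second libraries were recovered by subtracting the share of the first (0.526 for DMSO, from 811 rows, and 0.509 for 2 h, from 966 rows), with a remainder under 0.2% taken as 0. This reading rests on the values alone. Columns of values that matched no sample or group numbered 0.

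Rows of a symbol were summed (33085 rows, 29982 symbols), genes with a mean of at least 1 FPKM over the first 2 h and the 6 h library were kept, and log2(FPKM + 0.1) was compared, with a call past 2-fold (Python 3.11.15, pandas 2.3.3, numpy 2.4.6). The calculation was tested on simulated data. The study's methods give only an approximate number of reads per sample, and the depth of each library is unknown. Low values put the 6 h library at 1.09 times the depth of the first 2 h library, a ratio shown by 477 of 2577 low rows, and no counting error can be given. The step was chosen, and the 25 gene lists and alternatives were written, with earlier results of these data known. Named genes were the 12 largest steps each way and the 8 largest of each course among genes reaching 5 FPKM (without small-RNA and LOC symbols), the ends and every member past 2-fold of each list, and 5 small-RNA or LOC symbols, apart from a result that is not reported here. List members between these ends, other genes beyond both 2 h libraries and the RNAs without a poly(A) tail were named after values were seen. Promoters came from RefSeq (GRCh38.p14). Of the 373 genes more than 2-fold higher, 208 (55.8%) had one, so a share over that set was void and was not computed. The comparison of DMSO with 2 h and the step share the first 2 h library, and both differences at 6 h share the 6 h library.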

Additional observations from a re-analysis of the deposited data

How the results depend on the processing

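The direction of the step rested on the choice of 2 h library more than on the settings. With all genes, the counts higher and lower were 373 and 89. They were 236 higher with a pseudocount of 1, 1572 and 453 with no filter on low values, and 152 and 54 with a mean of at least 5 FPKM, and other scalings kept them within 1.5 times. With the second 2 h library in place of the first, and the filter set on it, they were 731 and 913, and with the mean of both 2 h libraries 292 genes were lower, so that the share of calls that were higher went from 80.7% to 44.5% and 57.1%. Taking the log2 difference of the DMSO libraries off the second 2 h library, an alternative chosen after seeing the data, gave 627 higher. The cause of these differences was not tested beyond fewer or more genes under a filter. Starting genes numbered 1194 with no filter, 94 at 5 FPKM and 462 with the adjusted second library. Continuing genes numbered 36 with a pseudocount of 1, 162 with no filter, 43 at 5 FPKM and 65 with the second library. Decaying genes numbered 240 with no filter, 675 with the second library and 145 with the mean of both.

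With the second 2 h library, over the genes that passed the filter set on it, list medians were 0.95 for heat shock proteins, 0.70 for TRiC, 0.013 for ER chaperones, 0.057 for ER-associated degradation, -0.023 for UPR sensors, 0.56 for ATF4-CHOP targets, -0.043 for NRF2 targets, 0.88 for metallothioneins, -0.75 for immediate-early genes, 0.16 for dual-specificity phosphatases, -2.19 for NF-kB targets and 0.44 for EGF ligands. They were 0.43 for the proteasome, -0.20 for ubiquitin and autophagy, -0.20 for apoptosis, -0.16 for cholesterol synthesis, 0.66 for mitosis, 0.82 for replication, 0.61 for homologous recombination, 0.24 for ribosomal proteins, 0.057 for oxidative phosphorylation, -0.24 for histones, 0.23 for SR proteins and CLK kinases and -0.022 for epithelial markers. With the adjusted second library they were 0.29 for heat shock proteins, 0.23 for UPR sensors, 2.20 for immediate-early genes, 1.07 for dual-specificity phosphatases, 2.00 for NF-kB targets, 0.45 for histones and 0.16 for epithelial markers. The mean of both 2 h libraries gave -0.0083 for NRF2 targets, 0.022 for histones and 0.13 for dual-specificity phosphatases. The last list was also at 0.16 with at least 5 FPKM, 0.14 with no scaling, 0.20 with the median ratio set to 1 and 0.21 with upper quartile scaling, and oxidative phosphorylation at 0.038, 0.10 and 0.11 with these scalings.

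Of 98 named genes, LOC symbols aside, steps past 2-fold reversed with the second 2 h library for RNVU1-15 (-0.38), CPSF1 (0.12), DMC1 (0.37), PIF1 (0.42), CXCL2 (-1.90), RELB (-0.33), FAS (-0.46), INSIG1 (-0.16) and MUC1 (-0.97), and with the mean of both for CXCL2 (-0.42). With the adjusted second library they reversed for RNVU1-15 (-0.38), DMC1 (0.33), RNVU1-14 (5.68, no fold, since the first DMSO library was listed at 0), EGR1 (5.26), EGR2 (6.00), EGR3 (5.57), EGR4 (3.81) and CTGF (2.46). Of the other values of these genes under an alternative, 847 moved by less than 1 SD of the 2 libraries at 2 h. A further 196 moved by more without such a reversal. Steps within 2-fold that changed sign, such as that of HYLS1, are not listed as reversed. No paired analysis was possible because the 6 h library has no second library to pair. Leaving out a library is possible only at 2 h and is given as the exchange of the 2 h libraries. The exact depth of each library is unknown, which limits what can be said of genes near 1 FPKM.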
